A study of Mus musculus with 7 samples.

Results

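The last steps of the mitochondrial respiratory chain were followed through 53 nuclear genes in inguinal white fat of TM4SF5-/- (KO) and wild-type (WT) mice. Members were the protein-coding nuclear genes whose symbol starts with Uqc, with Cox and a digit, or with Atp5, plus Cyc1 and Cycs, among 29517 genes of the count table. Cox7a1, Cox8b, 9 pseudogenes and the genes of the mitochondrial chromosome were left out by that rule. All 53 passed the filter on low counts. They comprise 40 structural subunits, of which 9 belong to complex III, 13 to complex IV and 17 to complex V and 1 is cytochrome c, and 13 assembly factors, 3 for complex III and 10 for complex IV. The supercomplex factor Cox7a2l, which is not an assembly factor in the strict sense, is counted among those 10.

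The 7 libraries were 3 from KO and 4 from WT animals, all C57BL/6, untreated, on standard chow and kept at 22 °C with 12 h of light. TM4SF5 is a membrane protein of the L6 family, and the labels do not give the deleted part of its gene, the age or the sex of the animals. They name the replicates 1 to 3 in KO and 1 to 4 in WT, and a library is called here by its label, as in KO 2. Nothing in the labels says more of how the animals of a group were chosen.

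Complex III takes electrons from ubiquinol and hands them to cytochrome c, complex IV passes them from cytochrome c to oxygen, and both pump protons across the inner mitochondrial membrane. Complex V, the ATP synthase, lets protons flow back through a ring of c subunits in the membrane and uses that flow to make ATP. Each complex is built from subunits of both genomes with the help of assembly factors, which insert heme and copper or hold unfinished intermediates and are not part of the finished enzyme. White adipocytes hold few mitochondria and brown or beige adipocytes hold many, in which the proton gradient can also be spent as heat.

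Library totals ran from 49775077 to 50704542 counts in KO and from 55717495 to 60241436 counts in WT. Tm4sf5 itself was barely detected, at 0.176, 0.132 and 0.353 CPM (counts relative to library size, after TMM scaling) in KO 1 to KO 3, against 0.537, 0.68, 0.728 and 0.322 CPM in WT 1 to WT 4, so KO 3 lay above WT 4. At these levels, and with the deleted part not given, this gene is no check of the genotype labels. Marker genes of adipocytes summed to between 16961 and 29915 CPM in KO and between 10493 and 15324 CPM in WT, with 7 of 8 markers at a log2 fold change above 0, 5 of 8 higher in KO at an unadjusted p under 0.05, and none at 0 counts in any library. Macrophage markers summed to between 428 and 678 CPM in KO and between 1260 and 1838 CPM in WT, 7 of 7 being lower in KO at an unadjusted p under 0.05 and none at 0 counts. For these and the markers below, 46.9% of all genes tested had a log2 fold change above 0. At an unadjusted p under 0.05 in edgeR, 12.3% of all genes were higher in KO and 9.51% lower. In bulk tissue, fewer cells of a type and less RNA per cell cannot be told apart, and what these shifts contribute to the values below was not tested. The 10 skeletal muscle markers, of which 3 were at 0 counts in WT 1 and 2 in WT 3, stood apart by library, at 15.9 to 150 CPM summed in KO, at 545 and 1279 CPM in WT 2 and WT 4, and at 17.5 and 3.98 CPM in WT 1 and WT 3. The 4 skin markers summed to 1.92 to 4.51 CPM in KO and 1.31 to 2.21 CPM in WT. The 4 mammary epithelium markers summed to 15.8, 1.87 and 7.44 CPM in KO 1 to KO 3, against 8.18, 2.16, 4.23 and 2.39 CPM in WT 1 to WT 4, with 4 of 4 above 0 in log2 fold change and 2 higher in KO at an unadjusted p under 0.05. B cell markers summed to 194 to 605 CPM in KO and 202 to 1100 CPM in WT, and T cell markers to 105 to 271 CPM in KO and 194 to 314 CPM in WT, with 0 of 4 and 0 of 5 above 0 and 0 at an unadjusted p under 0.05. Endothelial markers summed to at most 764 CPM in KO and 980 CPM in WT, with 2 of 4 above 0 and 0 at an unadjusted p under 0.05. The part of these cells in the members' values was not tested.

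The promoters shown first belong to the genes on which the isoform results turn. Atp5g1, Atp5g2 and Atp5g3 encode the same mature c subunit of complex V, and the ratio of Atp5g1 to each of the others was lower in KO. Cox7a2 encodes a subunit of complex IV, and Cox7a2l its relative, known as a factor for supercomplexes of complexes III and IV. The ratio of Cox7a2l to Cox7a2 was lower in KO. Neither the Cox7a2l allele of these animals nor their supercomplexes were examined. Cox6a1, the widely expressed form of subunit 6a, had the highest fold change of complex IV. Each sequence, from RefSeq (GRCm38.p6), runs from 250 bases before to 50 bases after the annotated start, 5′ to 3′ on the gene's strand, and capitals mark the motifs GCATGCGC (the core bound by NRF1, nuclear respiratory factor 1, which lies within the full motif, the core with GC before it), CCGGAAG (GABPA), AAGATGGC (YY1) and AAGGTCA (estrogen-related receptors), each on either strand.
Atp5g1, chr11:96075582-96075881, minus strand: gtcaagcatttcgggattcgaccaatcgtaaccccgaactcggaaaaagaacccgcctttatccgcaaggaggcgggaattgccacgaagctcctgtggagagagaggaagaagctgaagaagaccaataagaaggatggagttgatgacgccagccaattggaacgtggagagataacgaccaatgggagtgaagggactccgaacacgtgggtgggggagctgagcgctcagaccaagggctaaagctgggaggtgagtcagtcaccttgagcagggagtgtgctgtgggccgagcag
Atp5g2, chr15:102670998-102671297, minus strand: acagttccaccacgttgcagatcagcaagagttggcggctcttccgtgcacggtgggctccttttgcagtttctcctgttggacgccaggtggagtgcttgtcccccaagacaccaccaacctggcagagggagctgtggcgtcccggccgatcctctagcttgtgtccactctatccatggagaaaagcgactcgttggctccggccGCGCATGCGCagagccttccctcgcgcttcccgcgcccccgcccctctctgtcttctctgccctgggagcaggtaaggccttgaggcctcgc
Atp5g3, chr2:73911277-73911576, minus strand: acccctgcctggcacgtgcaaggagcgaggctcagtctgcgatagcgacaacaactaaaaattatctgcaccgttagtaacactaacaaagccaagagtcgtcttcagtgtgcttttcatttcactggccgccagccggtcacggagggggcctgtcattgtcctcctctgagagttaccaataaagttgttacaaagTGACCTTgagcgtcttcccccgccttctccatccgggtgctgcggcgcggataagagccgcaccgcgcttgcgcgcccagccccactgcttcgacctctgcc
Cox7a2l, chr17:83514284-83514583, minus strand: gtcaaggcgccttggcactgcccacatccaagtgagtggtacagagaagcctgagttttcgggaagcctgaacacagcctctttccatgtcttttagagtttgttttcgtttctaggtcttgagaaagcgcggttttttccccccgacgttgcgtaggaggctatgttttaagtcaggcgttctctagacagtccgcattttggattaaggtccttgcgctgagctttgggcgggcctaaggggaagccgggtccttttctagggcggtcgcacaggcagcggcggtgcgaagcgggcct
Cox7a2, chr9:79759804-79760103, minus strand: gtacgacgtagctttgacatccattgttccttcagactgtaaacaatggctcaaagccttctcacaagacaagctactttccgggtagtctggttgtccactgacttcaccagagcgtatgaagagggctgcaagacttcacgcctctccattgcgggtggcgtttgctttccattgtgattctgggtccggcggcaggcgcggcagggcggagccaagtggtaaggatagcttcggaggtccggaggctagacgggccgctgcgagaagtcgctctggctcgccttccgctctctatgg
Cox6a1, chr5:115348909-115349208, minus strand: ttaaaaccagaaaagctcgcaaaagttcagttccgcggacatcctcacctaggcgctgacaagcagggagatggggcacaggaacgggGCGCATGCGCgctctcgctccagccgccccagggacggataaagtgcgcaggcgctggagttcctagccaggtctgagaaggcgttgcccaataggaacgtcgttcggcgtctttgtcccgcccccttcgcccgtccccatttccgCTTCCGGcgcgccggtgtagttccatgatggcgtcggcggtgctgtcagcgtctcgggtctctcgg

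A full NRF1 motif lay 42 bases before the start of Atp5g2 and 162 bases before that of Cox6a1, which also held a GABPA motif 16 bases before its start. Atp5g3 held the receptor motif on the opposite strand, 52 bases before its start. The windows of Atp5g1, Cox7a2l and Cox7a2 held none of these 4 kinds of motif. RefSeq promoters were matched for 41 of the 53 members. The NRF1 core was found in 7 of them (17.1%), against 3.05% of 27025 genes with a promoter of the same length, and the full NRF1 motif in 4 (9.76%, against 1.07%). GABPA letters were found in 16 members (39%, against 9.93%), YY1 letters in 6 (14.6%, against 3.19%), receptor letters in 5 (12.2%, against 5.38%) and the SP1 motif GGGCGG in 20 (48.8%, against 38.2%). All 7 members with the NRF1 core were among the 30 matched structural subunits, and 0 were among the 11 matched assembly factors, while GABPA letters occurred in 11 subunits and 5 assembly factors. YY1 letters occurred in 3 subunits and 3 assembly factors, receptor letters in 4 and 1, and the SP1 motif in 11 and 9. In 11 genes, 0 is not unusual where 3.05% of all genes hold the core. Whether motifs differ between subunits and assembly factors was not tested. These matches describe letters in a window and show no binding.

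Nearly every member was higher in KO fat, with no single gene past the threshold adjusted over all genes. A log2 fold change above 0 was found for 51 of 53 members, where 46.9% of the 19185 genes tested lay above 0, and the median was 0.81 for members and -0.04 for all genes tested. With edgeR's quasi-likelihood test 0 members had an adjusted p under 0.05, as had 0% of all genes, and the smallest adjusted p among members was 0.0956. At an unadjusted p under 0.05, 46 members were higher in KO, where 12.3% of all genes tested were, and 0 were lower, where 9.51% were. KO and WT values did not overlap for 39 members, all higher in KO, where 11.4% of all genes were higher and 8.92% lower without overlap. DESeq2 on the same counts called 39 members higher at an adjusted p under 0.05, where it called 6.4% of all genes, and 0 lower, where it called 4.85%, while limma-voom called 0 members and 0.00521% of all genes.

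**Figure D1:**
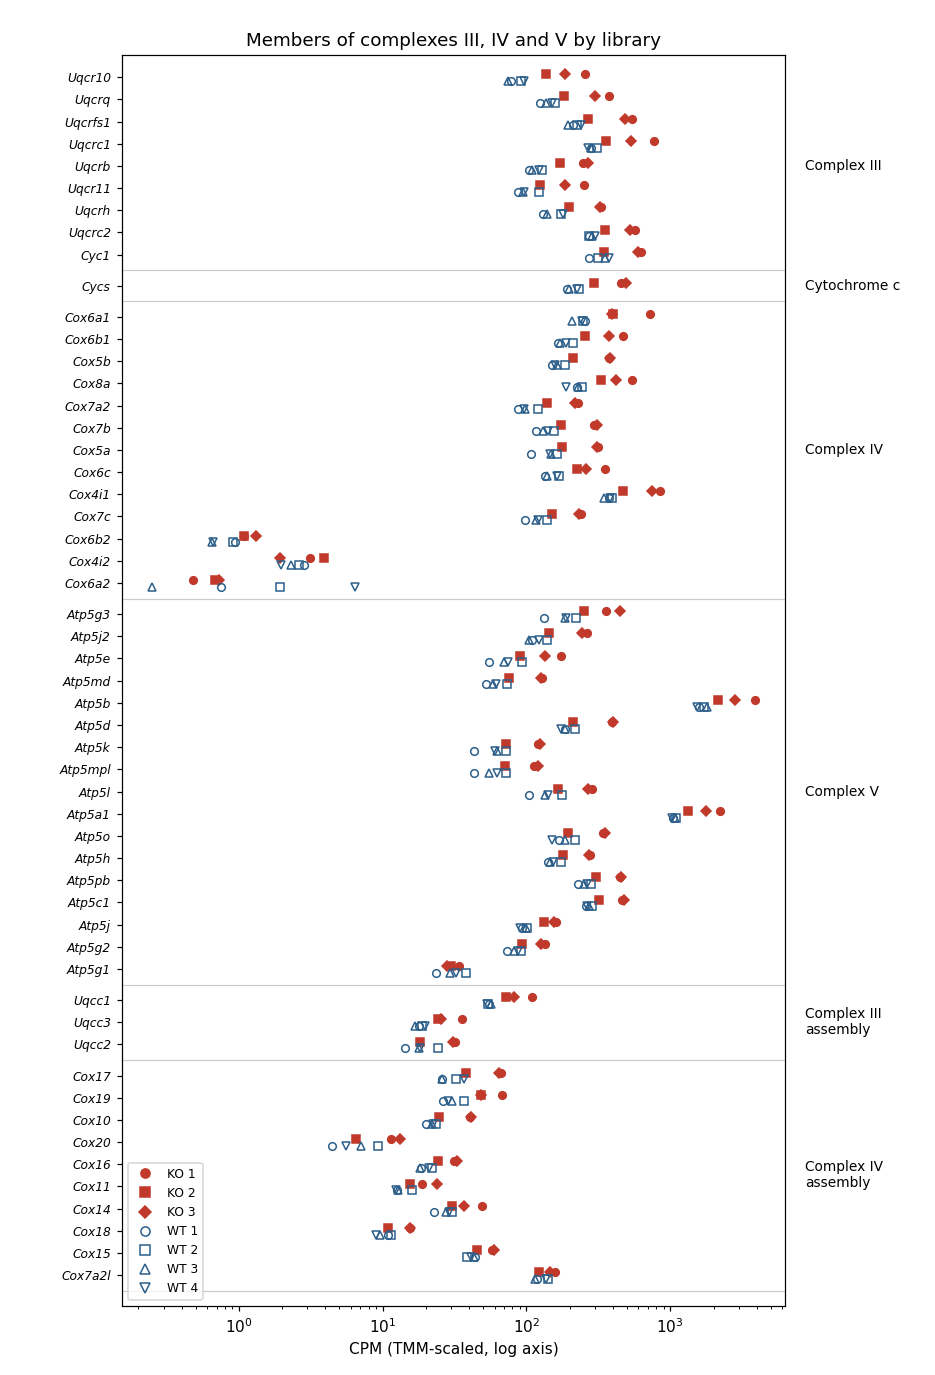
CPM of each of the 53 members (log axis) in the 3 KO libraries (filled red, upper points of each row) and the 4 WT libraries (open blue, lower points), by role group and ordered by fold change within it. The points of 39 members do not overlap between KO and WT, and KO 2 is the lowest KO library in 48 of 53 rows.

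All of complex III was higher in KO. Its 9 subunits had log2 fold changes between 0.67 and 1.17 with a median of 0.96. All 9 had an unadjusted p under 0.05, where 12.3% of all genes tested were higher at that threshold. The groups did not overlap in 8, where 11.4% of all genes were higher without overlap. Uqcr10, a small supernumerary subunit, was at 254, 136 and 185 CPM in KO 1 to KO 3, against 78.2, 91.8, 74.5 and 96 CPM in WT 1 to WT 4. Every KO library was above every WT library, and the fold change was 2.25 (log2 1.17, SE 0.22, edgeR adjusted p = 0.0956).

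Uqcrb, which lies next to the ubiquinone site made by cytochrome b, had 247, 170 and 266 CPM in KO libraries, against 105, 129, 110 and 123 CPM in WT libraries (log2 fold change 0.96, SE 0.18, edgeR adjusted p = 0.0956). Uqcrq, another small subunit, averaged 286 ± 96.6 CPM in KO (SD, n = 3) and 143 ± 15.8 CPM in WT (SD, n = 4). Uqcrc2, a core protein on the matrix side, averaged 485 ± 115 CPM in KO and 281 ± 12.7 CPM in WT. In these genes the KO libraries spread far more widely than the WT libraries. Uqcrfs1, the Rieske iron-sulfur protein (log2 fold change 1.00), Uqcrc1, the other core protein (0.96), Uqcr11 (0.90) and the hinge protein gene Uqcrh (0.87) lay between them. Cyc1, which encodes cytochrome c1, had the largest p of the complex, with 630, 346 and 600 CPM in KO libraries, against 272, 315, 354 and 377 CPM in WT libraries. KO 2 lay below WT 3 and WT 4, and the log2 fold change of 0.67 (SE 0.24) had an edgeR adjusted p of 0.161.

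Cycs encodes somatic cytochrome c, the mobile carrier between complexes III and IV. It stood at 456, 297 and 493 CPM in KO 1 to KO 3, against 193, 232, 197 and 223 CPM in WT 1 to WT 4, with no overlap (log2 fold change 0.98, SE 0.20, edgeR adjusted p = 0.0956). The medians of the complexes on either side of it were 0.96 for complex III and 0.92 for complex IV.

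In complex IV the common subunits were higher in KO, and the minor isoforms gave mixed values. The 10 common subunits had log2 fold changes between 0.81 and 1.08 with a median of 0.94. In all 10 the KO libraries lay above the WT libraries, as they did in 11.4% of all genes tested. Cox8a, the common form of subunit 8, was at 543, 331 and 421 CPM in KO libraries, against 224, 243, 229 and 189 CPM in WT libraries (log2 fold change 0.96, SE 0.19, edgeR adjusted p = 0.0956). Cox6c averaged 279 ± 65.6 CPM in KO (SD, n = 3) and 152 ± 17.4 CPM in WT (SD, n = 4). Cox7a2, the liver-type form of subunit 7a, was at 228, 139 and 216 CPM in KO libraries, against 87.2, 121, 98.5 and 95.6 CPM in WT libraries. For each of these genes the lowest KO library was KO 2 and it was still above the highest WT library. Cox6b1, which faces the intermembrane space, averaged 368 ± 108 CPM in KO and 184 ± 21.1 CPM in WT, a fold change of 2 (log2 1.00, SE 0.22, edgeR adjusted p = 0.0957). Cox6a1 had the highest log2 fold change of the complex at 1.08 (SE 0.24), followed among those not yet listed by Cox5b (0.98), Cox7b (0.93), Cox5a (0.92), Cox4i1 (0.88) and Cox7c (0.81).

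The 3 minor isoforms were expressed at far lower levels than the common ones. Per length, Cox4i2 was at 4.14 CPM per kb in KO and 3.36 CPM per kb in WT, and Cox4i1 at 923 CPM per kb in KO and 503 CPM per kb in WT. Cox4i2, a form of subunit 4 known from lung and low oxygen, had 3.15, 3.94 and 1.93 CPM in KO libraries, against 2.85, 2.64, 2.31 and 1.97 CPM in WT libraries, with overlap (log2 fold change 0.30, SE 0.30, edgeR adjusted p = 0.586). With total counts alone it was -0.03, where the median of all genes was -0.35. Cox6b2, a testis form, averaged 1.16 ± 0.132 CPM in KO (SD, n = 3) and 0.79 ± 0.156 CPM in WT (SD, n = 4), with no overlap but an edgeR adjusted p of 0.319. Cox6a2, the form of heart and skeletal muscle, had 0.478, 0.682 and 0.727 CPM in KO libraries, against 0.749, 1.93, 0.248 and 6.45 CPM in WT libraries. The WT libraries alone covered a wide range, WT 4 and WT 2 being the highest, and the log2 fold change of -1.89 (SE 0.98) had an edgeR adjusted p of 0.299. Those are also the libraries with the most muscle message: Ckm, the muscle creatine kinase, was at 20.6, 7.46 and 1.58 CPM in KO libraries, against 59.8 and 176 CPM in WT 2 and WT 4 and 0 and 0.0465 CPM in WT 1 and WT 3. What muscle message contributes to Cox6a2 was not tested. Without WT 2 and WT 4, a setting chosen after seeing the data, the log2 fold change of Cox6a2 was 0.34, and without WT 4 alone it was -0.63. The gene overlaps Itgad in the annotation, and the labels do not say how reads in both were counted.

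Complex V had the smallest median of the 3 complexes, 0.78 over 17 subunits. Of the 17, 11 were higher in KO with no overlap between the groups, where 11.4% of all genes tested were. The catalytic F1 head gave log2 fold changes between 0.64 and 0.85. Atp5b, the catalytic β subunit with the highest level per length among the members (1539 CPM per kb in KO and 867 CPM per kb in WT; Atp5c1, Cox11 and Cox18 had no length), was at 3899, 2137 and 2812 CPM in KO libraries, against 1578, 1729, 1802 and 1537 CPM in WT libraries. Its partner Atp5a1, the α subunit, averaged 1769 ± 441 CPM in KO (SD, n = 3) and 1061 ± 31.5 CPM in WT (SD, n = 4). In both genes the 4 WT libraries were nearly level and the KO libraries ran from KO 2 up to KO 1. Atp5e (0.85), Atp5d (0.82) and Atp5c1 (0.64), the ε, δ and γ subunits of the central stalk, completed the head, and in Atp5d and Atp5e KO 2 lay below WT 2.

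The peripheral stalk, which holds the head still, was even, with log2 fold changes of 0.65 for Atp5pb, 0.65 for Atp5h, 0.64 for Atp5j and 0.71 for Atp5o, in which KO 2 lay below WT 2. Atp5j, coupling factor 6, was at 161, 132 and 156 CPM in KO libraries, against 92.7, 101, 100 and 90.5 CPM in WT libraries. Its KO libraries were close together (SD 15.6 CPM around 150 CPM), and it had the smallest p of the complex (log2 fold change SE 0.13, edgeR adjusted p = 0.0956). The accessory membrane subunits lay between 0.78 and 0.86. Among them Atp5md, known as DAPIT, had 128, 75.2 and 126 CPM in KO libraries, against 52.2, 73.3, 58.1 and 61.3 CPM in WT libraries. Atp5j2, subunit f, averaged 216 ± 63.4 CPM in KO and 119 ± 14.7 CPM in WT. KO 2 was narrowly above the highest WT library in both, at 75.2 against 73.3 CPM in Atp5md and 143 against 138 CPM in Atp5j2. Atp5k (0.82), Atp5mpl (0.80) and Atp5l (0.78) are the others, and in Atp5l and Atp5mpl KO 2 lay below WT 2.

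The c ring genes differed among themselves. Atp5g3 was at 355, 251 and 450 CPM in KO libraries, against 133, 222, 186 and 189 CPM in WT libraries, with no overlap (log2 fold change 0.95, SE 0.24, edgeR adjusted p = 0.103). Atp5g2 was at 135, 93.4 and 127 CPM in KO libraries, against 73.2, 91.9, 82.6 and 87.1 CPM in WT libraries (0.50, SE 0.16, edgeR adjusted p = 0.142). Atp5g1 (Entrez 11951, chromosome 11, 96072793 to 96075694 in mm10) was at 34.2, 29.9 and 28 CPM in KO libraries, against 23.6, 38.1, 29.2 and 32.4 CPM in WT libraries. Its values interleaved completely, and the log2 fold change of -0.01 (SE 0.18, edgeR adjusted p = 0.988) ran from -0.11 to 0.11 when single libraries were left out and was 0.22 without WT 2 and WT 4. Together the genes gave 524, 374 and 604 CPM in KO libraries, against 230, 352, 297 and 308 CPM in WT libraries. Within that sum Atp5g1 supplied 6.38% ± 1.69 in KO (SD, n = 3) and 10.3% ± 0.431 in WT (SD, n = 4), and Atp5g3 supplied 69.7% ± 4.07 in KO and 61.2% ± 2.27 in WT. Per kilobase of the shortest principal transcript, the mean level was 51.5 CPM per kb in KO and 51.7 CPM per kb in WT for Atp5g1, and 493 CPM per kb in KO and 255 CPM per kb in WT for Atp5g3. Principal transcripts of Atp5g1 run from 596 to 4715 bases, so its level per length is uncertain.

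Ratios of related genes within a library do not depend on how libraries are scaled, and 5 such ratios were compared by an exact permutation test of the KO and WT labels (two-sided, smallest possible p = 0.0286), with p adjusted over the 5 ratios. The pairs were chosen with earlier results of these data known, so these p-values are not independent evidence, and the adjusted p of 0.0476 rests on 3 ratios at the smallest possible p, of which 2 share Atp5g1. Counts of Atp5g1 were 9.63%, 11.9% and 6.22% of those of Atp5g3 in KO 1 to KO 3, against 17.7%, 17.2%, 15.7% and 17.2% in WT 1 to WT 4. The KO ratio was lower in 3 of 3 libraries, with a difference of -0.92 on the log2 scale (exact p = 0.0286, adjusted p = 0.0476). Against Atp5g2, Atp5g1 was at 25.3%, 32% and 22% in KO libraries and at 32.2%, 41.4%, 35.3% and 37.2% in WT libraries, a difference of -0.48 (exact p = 0.0286, adjusted p = 0.0476), with KO 2 and WT 1 almost equal.

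Cox7a2l (Entrez 20463, chromosome 17, 83501917 to 83514333 in mm10), the supercomplex factor also called SCAF1, was nearly level, at 158, 122 and 146 CPM in KO libraries, against 119, 142, 115 and 136 CPM in WT libraries. The groups overlapped, with a log2 fold change of 0.15 (SE 0.15, adjusted p = 0.574 in edgeR) and -0.18 with total counts alone, where the median of all genes was -0.35. Its counts were 69.3%, 87.8% and 67.6% of those of Cox7a2 in KO libraries, against 136%, 118%, 117% and 142% in WT libraries. All 3 KO ratios lay below all 4 WT ratios, and the log2 ratio differed by -0.78 (exact p = 0.0286, adjusted p = 0.0476). Cox4i2 to Cox4i1 (-0.58, exact p = 0.286, adjusted p = 0.286) and Cox6a2 to Cox6a1 (exact p = 0.171, adjusted p = 0.214) did not pass. The difference for Cox4i2 to Cox4i1 was -0.21 without KO 3 and -1.06 without KO 2, and that for Cox6a2 to Cox6a1 was -1.23 without WT 4.

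**Figure D2:**
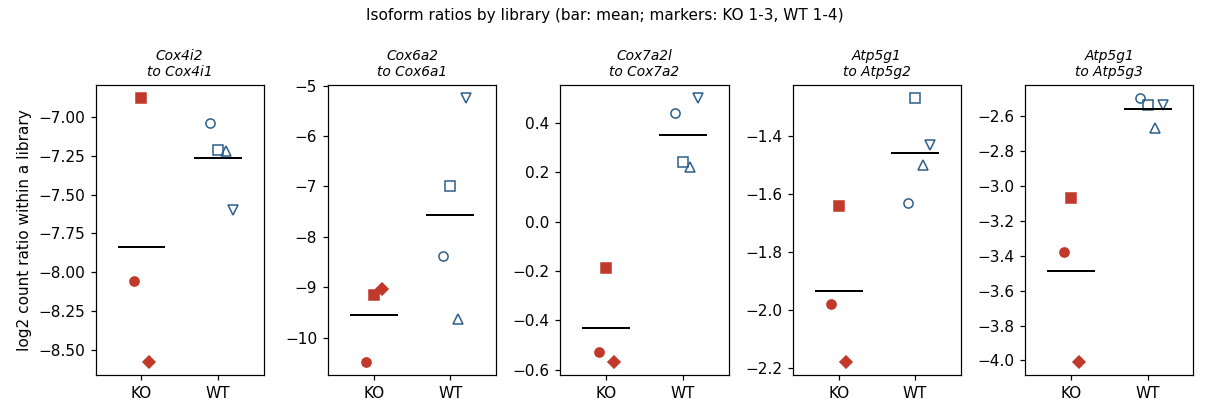
log2 ratio of the counts of 2 related genes within each library, for 5 pairs, with KO libraries in filled red and WT libraries in open blue (circle, square, diamond for KO 1 to KO 3; circle, square, triangle up, triangle down for WT 1 to WT 4) and a bar at each group's mean. KO and WT do not overlap in the 3 right-hand panels, where the means differ by -0.78, -0.48 and -0.92, and overlap in the 2 left-hand panels.

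Assembly factors were higher in KO as well, by less than the subunits. The 13 factors had a median log2 fold change of 0.57, against 0.85 for the 40 structural subunits, and 12 of the 13 lay below the subunit median. All 13 were above 0, where 46.9% of all genes tested were. At an unadjusted p under 0.05, 10 were higher in KO, where 12.3% of all genes were. The groups did not overlap in 8, where 11.4% of all genes were higher without overlap. The mean log2 CPM of subunits exceeded that of assembly factors by 2.43, 2.33 and 2.40 in KO 1 to KO 3, against 2.19, 2.23, 2.15 and 2.28 in WT 1 to WT 4. The KO libraries lay above the WT libraries by 0.17 on average, and this difference stayed between 0.15 and 0.20 when any single library was left out. It was 0.12 with Cox7a2l counted among the subunits, a setting chosen after seeing the data. No test was run on these means, since the members were chosen with earlier results known.

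**Figure D3:**
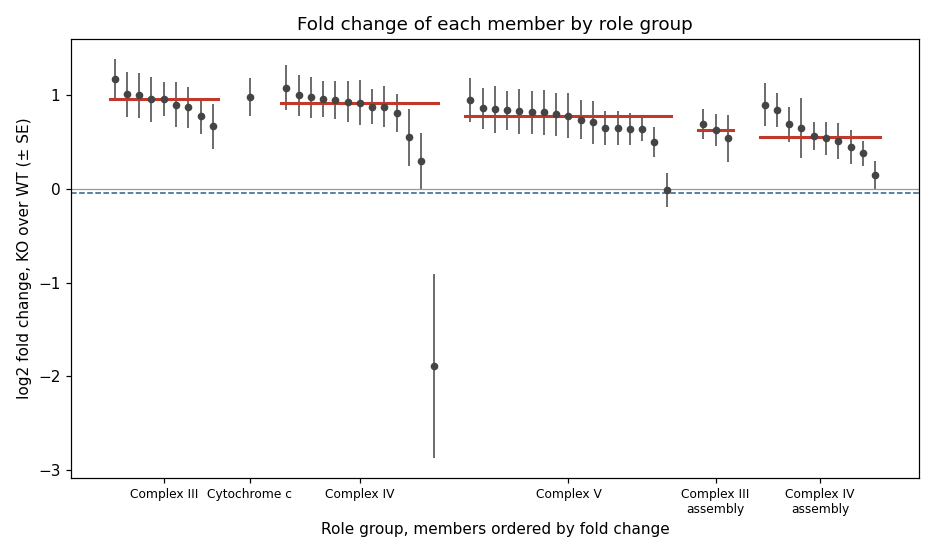
log2 fold change of KO over WT with its standard error for each of the 53 members, ordered by size within its role group, with red bars at group medians (0.96, 0.92, 0.78, 0.63 and 0.55 from left to right, cytochrome c having none) and a dashed line at the median of all genes tested (-0.04). Assembly factors sit lower than subunits, and Cox6a2 at -1.89 stands alone below the line.

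The complex III factors Uqcc1, Uqcc2 and Uqcc3 help make and stabilize cytochrome b. Uqcc1 was at 110, 72.4 and 82.1 CPM in KO libraries, against 55, 53.7, 56.8 and 52.8 CPM in WT libraries, with no overlap and little spread in WT (log2 fold change 0.69, SE 0.16, edgeR adjusted p = 0.0967). Uqcc3 averaged 28.4 ± 6.3 CPM in KO (SD, n = 3) and 18.3 ± 1.24 CPM in WT (SD, n = 4), or 0.63 (SE 0.17) on the log2 scale. Uqcc2 overlapped, with KO 2 at 18.1 CPM below WT 2 at 24.1 CPM (0.54, SE 0.25, edgeR adjusted p = 0.251).

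Among the complex IV factors, the copper factors Cox17 and Cox19 had the highest fold changes. Cox17, the chaperone that brings copper into the intermembrane space pathway, was at 66.6, 37.8 and 64.6 CPM in KO libraries, against 25.7, 32.6, 25.7 and 36.9 CPM in WT libraries (log2 fold change 0.90, SE 0.23, edgeR adjusted p = 0.104). Cox19, which acts in the same pathway, was at 67.6, 48.3 and 48 CPM in KO libraries, against 26.1, 37, 30.3 and 28.3 CPM in WT libraries (0.84, SE 0.18, edgeR adjusted p = 0.0957). In both genes all KO libraries exceeded all WT libraries, by a narrow margin in Cox17. Cox11, which hands copper to COX1, was lower in the order at 0.54 (SE 0.18). Of the enzymes that make heme A, Cox10 averaged 35.5 ± 9.48 CPM in KO (SD, n = 3) and 22 ± 1.41 CPM in WT (SD, n = 4), with a log2 fold change of 0.69, and Cox15 averaged 54.3 ± 7.6 CPM in KO and 41.7 ± 2.39 CPM in WT, with 0.38. Cox16 (0.57), Cox18 (0.45) and Cox20 (0.65), which serve the maturation of COX2, and Cox14 (0.51), which serves that of COX1, ranged around them.

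The size of the shift differed among KO libraries. Over all members the median log2 ratio to the WT mean was 1.02 in KO 1, 0.31 in KO 2 and 0.91 in KO 3, against -0.13, 0.16, -0.06 and 0.03 in WT 1 to WT 4. KO 1 exceeded every WT library in 51 of 53 members, KO 3 in 50 and KO 2 in 40. Of the 13 assembly factors KO 2 exceeded every WT library in 8. The same shares over all genes tested were not computed, so these counts by library stand without a background. The summed level of 8 brown or beige adipocyte markers had the same order among KO libraries and overlapped between the groups, at 2520, 652 and 1671 CPM in KO 1 to KO 3, against 525, 206, 200 and 1016 CPM in WT 1 to WT 4. Among WT libraries the order differed, as the sum was highest in WT 4 and the members' median in WT 2. WT 1, the lowest in that median, was above WT 2 and WT 3 in the sum. Of the 8 markers, 8 had a log2 fold change above 0, where 46.9% of all genes tested did. At an unadjusted p under 0.05, 4 were higher in KO, where 12.3% of all genes were, and none was at 0 counts. The whole gap between KO 2 and WT 4 in this sum was Ucp1, the uncoupling protein, at 200 CPM in KO 2 and 579 CPM in WT 4. Without Ucp1 the sum was slightly higher in KO 2 than in WT 4, and the groups did not overlap. Single markers differed in whether the groups overlapped. Cidea, a lipid droplet protein of brown fat, was at 632, 262 and 409 CPM in KO libraries, against 141, 64.9, 63.2 and 240 CPM in WT libraries, with no overlap. Otop1 had no overlap either, with 71.5 CPM in the lowest KO library and 39.2 CPM in the highest WT library, and the other 6 markers overlapped. The respiratory members had medians of 0.31 in KO 2 and 0.03 in WT 4. Cox7a1 and Cox8b, the muscle and brown fat forms that the rule leaves out, are themselves among the 8 markers. Cox8b was at 225, 70.5 and 188 CPM in KO libraries, against 39.9, 18.2, 16 and 72.7 CPM in WT libraries, and Cox7a1 was at 86.4, 24 and 69.3 CPM in KO libraries, against 18.9, 18.1, 13.8 and 24.8 CPM in WT libraries. In both of them KO 2 and WT 4 were nearly equal. How far brown adipocyte content contributes to the members' shift was not tested.

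**Figure D4:**
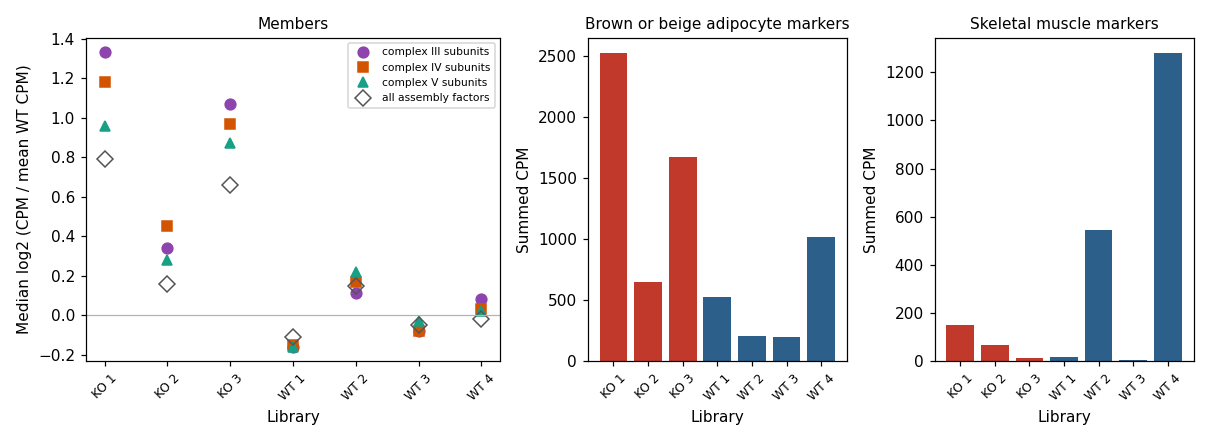
Left, the median log2 ratio of each library's CPM to the WT mean for the subunits of complexes III, IV and V and for the assembly factors. Middle and right, the summed CPM of 8 brown or beige adipocyte markers and of 10 skeletal muscle markers (KO red, WT blue). The members are highest in KO 1 and KO 3, whereas WT 4 exceeds KO 2 in both marker sums, in the brown or beige sum through Ucp1.

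The mitochondrially encoded partners were higher in KO as well. Cytochrome b, the catalytic core of complex III, was at 30815, 24205 and 20399 CPM in KO 1 to KO 3, against 11225, 8404, 9871 and 13615 CPM in WT 1 to WT 4. COX1, the heme-copper core of complex IV, was at 77426, 61621 and 49606 CPM in KO libraries, against 35236, 24109, 24872 and 35212 CPM in WT libraries. All 6 of these partners, CYTB, COX1, COX2, COX3, ATP6 and ATP8, were higher in every KO library than in any WT library, with log2 fold changes between 1.04 and 1.22 and edgeR adjusted p-values between 0.0967 and 0.169. Of all genes tested, 11.4% were higher in KO without overlap. The lowest KO library was KO 3 for CYTB, COX1, COX3 and ATP8, and KO 2 for COX2 and ATP6. Nuclear copies of mitochondrial genes may share reads with these messages.

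Other genes of the pathway, a list of 41 tested assembly, accessory and complex II genes, gave a median log2 fold change of 0.62. Of them 40 were above 0, where 46.9% of all genes tested were. At an unadjusted p under 0.05, 32 were higher in KO, where 12.3% of all genes were, and 0 were lower, where 9.51% were. In edgeR 0 passed over all genes, as did 0% of all genes. DESeq2 called 21 higher, where it called 6.4% of all genes, and 0 lower, where it called 4.85%. Tmem70, which helps assemble the c ring, was at 94, 61.1 and 78.3 CPM in KO libraries, against 44.3, 44, 40.1 and 47.2 CPM in WT libraries. Atpaf2, an F1 assembly factor, had a log2 fold change of 0.91 (SE 0.20) and Ndufa4, a subunit now placed in complex IV, had 0.97 (SE 0.20). The complex II subunit gene Sdhd had 0.93 (SE 0.21). Tmem70, Atpaf2, Ndufa4 and Sdhd were among the higher of the list. Atpaf1, another F1 assembly factor, had 0.27 (SE 0.16, edgeR adjusted p = 0.363). The lowest values above 0 were 0.18 for Fdx2, 0.25 for Coa4 and 0.25 for Sdhaf2. The one gene below 0 was Atpif1, whose product inhibits ATP hydrolysis by complex V, at 16.8, 14.7 and 13.9 CPM in KO libraries, against 20.8, 19.4, 16.4 and 17.7 CPM in WT libraries. Its groups overlapped and it did not pass (log2 fold change -0.30, SE 0.15, edgeR adjusted p = 0.278).

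Scaling set how large these shifts appeared. With total counts alone the median of all genes tested was -0.35 in place of -0.04 on the log2 scale, the median of the 40 subunits was 0.51 and that of the 13 assembly factors 0.25, and the members without overlap numbered 8 in place of 39. Leaving the mitochondrial chromosome out of the scaling gave 0.86 and 0.58. Mitochondrial messages took 16.1% to 18.9% of counts in KO libraries and 8.07% to 12.1% in WT libraries. Copies and overlaps could share reads with some members. The pseudogene Cox5b-ps had 176 to 423 counts in KO libraries and 214 to 666 in WT libraries, and 20 members overlap another annotated gene, among them Cox7a2, which overlaps Tmem30a.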

How the data were processed

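The authors deposited whole-number read counts for each Entrez gene, with 1 column per library and no normalization. Per the submitters' processing notes, bcl2fastq 2.20.0, Trimmomatic, HISAT2 2.1.0, StringTie 1.3.4d and DESeq2 were used with mm10. Libraries were made with a stranded mRNA kit, per the labels' protocols. Which annotation and strand rule the counting used, the sources used here do not say. Of 29517 identifiers, 29444 matched the RefSeq table of GRCm38.p6 (the assembly of mm10), which gave symbols, biotypes and coordinates. There were 0 further columns of per-sample values.

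Counts were analysed in R 4.3.3 with edgeR 4.0.16. Genes were kept by filterByExpr (minimum count 10), which left 19185, libraries were scaled by TMM, and KO was compared with WT by the quasi-likelihood test on genotype alone, adjusted by Benjamini-Hochberg over all genes at 0.05. DESeq2 1.42.0 and limma-voom (limma 3.58.1) were alternatives. On simulated counts for this comparison over 19185 genes, edgeR recovered 11% of 2-fold and 60% of 4-fold changes, with 4 unchanged genes among 75 calls. Levels per kb used the shortest principal coding transcript of GENCODE, mouse release for GRCm38. The Cox7a2l gene was counted with the assembly factors.

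The members, lists, ratios and tests were chosen with earlier results of these data known. Per role group the text names up to 4 members with the smallest p, the one with the largest p, those below 0 and the tissue isoforms, and other members are given by their values for completeness. The design text calls the replicates biological. Library pairs correlated at 0.925 to 0.977 and had a chi-square per degree of freedom of at least 105, so no pair agreed within sampling noise.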

Additional observations from a re-analysis of the deposited data

Results flagged for a closer look

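Of 58 sets of WT values examined (53 members and 5 ratios), 1 held a library far from the others, where chance would flag about 1 in 20. Cox11 was at 15.9 CPM in WT 2, against 12.6, 12.8 and 12.3 CPM in WT 1, WT 3 and WT 4.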

How the results depend on the processing

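Directions of the role-group medians held under the alternatives run, and so did the 0 members at an adjusted p under 0.05 except with DESeq2 (39 higher). Total counts alone gave 23 members higher at an unadjusted p under 0.05 in place of 46, 8 without overlap in place of 39, and medians of 0.62, 0.59 and 0.45 for subunits of complexes III, IV and V, 0.29 and 0.23 for assembly factors of complexes III and IV, 0.51 for all subunits and 0.25 for all factors. With total counts the median of all genes tested moved as well, to -0.35 in place of -0.04. Shares of all genes are not given for total counts or for the fits without single libraries. Leaving out single libraries gave 38 to 48 members higher and 0 to 1 lower at an unadjusted p under 0.05, and 33 to 50 higher and 0 to 1 lower without overlap. The 1 lower member, without WT 3 and at an unadjusted p in DESeq2 (count 1), was Cox6a2. The log2 ratio differences ran from -0.90 to -0.71 for Cox7a2l to Cox7a2, from -0.62 to -0.35 for Atp5g1 to Atp5g2 from -1.13 to -0.66 for Atp5g1 to Atp5g3, from -1.06 to -0.21 for Cox4i2 to Cox4i1 and from -2.69 to -1.23 for Cox6a2 to Cox6a1. With 1 library fewer the exact test, adjusted, cannot pass, so those p-values say nothing of stability.

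Pairing of libraries by replicate number was not seen, though 3 correlations cannot exclude it. The deviations of same-numbered libraries correlated at 0.223, -0.171 and -0.0184. Those of differently numbered KO and WT libraries ran from -0.375 (KO 3 and WT 1) to 0.243 (KO 3 and WT 4). With the replicate block, which leaves WT 4 without a partner, 40 members were higher at an unadjusted p under 0.05 and 0 passed over all genes, and the ratio differences above were -0.73, -0.47 and -0.91 (exact sign-flip adjusted p = 0.417, beyond reach with 3 pairs). Signs of members near 0 turned. Atp5g1 was at 0.01 without chromosome MT in the scaling, 0.01 with limma-voom, 0.22 without WT 2 and WT 4, 0.04 in the fit with the replicate block, and -0.11 to 0.11 without single libraries. With total counts, which put the median of all genes at -0.35, Atp5g1 was at -0.34, Cox4i2 at -0.03 and Cox7a2l at -0.18, and Cox6a2 was at 0.34 without WT 2 and WT 4.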
